A study of Mus musculus with 12 samples.

Results

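The genes described here encode the MHC class II presentation machinery: H2-Aa, H2-Ab1, H2-Eb1, Cd74, Ciita, H2-DMa, H2-DMb1, H2-Oa and H2-Ob. They were chosen by gene symbol, and a probe set counted as theirs where the probe annotation paired it with that symbol alone. This gave 16 of the 45037 probe sets and 8 of the 9 genes, because every probe set of H2-DMb1 was paired with H2-DMb2 as well. Of these, 12 probe sets of 7 genes entered the tests, among 10817 genes tested in all. The 3 probe sets of Ciita and 1 of the 4 of H2-Aa were too dim.

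RNA was measured on 12 Affymetrix mouse arrays, in 4 groups of 3 biological replicates. Stem and progenitor cells (KLS) of Msi2 Gt/Gt mice, which are homozygous for a gene trap in the RNA-binding protein gene Msi2, or of wild-type mice were infected and transplanted to give leukaemia. MLL-AF9 gave de novo acute myelogenous leukaemia (AML), sorted as Lin-Sca1-ckit+ cells, and BCR-ABL/NUP98-HOXA9 gave blast crisis chronic myelogenous leukaemia (bcCML), sorted as Lin- cells. The groups were mutant AML, wild-type AML, mutant bcCML and wild-type bcCML, untreated, all labelled with the strain B6;CB-Msi2Gt(pU-21T)2Imeg. The ages of the mice and the antibodies behind the lineage gate are not given in the sources used here, and a gate on lineage does not by itself part leukaemic cells from normal cells of the host. The 2 sorts differ, so leukaemia and gate cannot be told apart.

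Class II molecules are pairs of an alpha and a beta chain that show peptides from endosomes to CD4+ T cells. H2-Aa and H2-Ab1 encode the 2 chains of I-A, and H2-Eb1 encodes the beta chain of I-E, whose alpha chain gene H2-Ea is silent in some mouse strains. Cd74 encodes the invariant chain, which fills the groove of new class II molecules and guides them to endosomes. H2-DMa and H2-DMb1 encode H2-DM, which swaps the remnant of the invariant chain for other peptides, and H2-Oa and H2-Ob encode H2-DO, which restrains H2-DM. Ciita is the co-activator that most class II genes need; it acts through factors bound at the X and Y boxes upstream of these genes. Dendritic cells, B cells and macrophages are the best known sites of class II expression.

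Those boxes can be seen in the reference promoters, shown because the genes that share them did not all vary together below. Of the 9 genes, 6 (7 windows) were matched in the RefSeq promoter table (GRCm38.p6, 250 bases before to 50 after each start). A core of the X box, GCAAC, followed after 15 to 35 bases by the core of the Y box, ATTGG, was searched on both strands, with letters and spacing set after the members' promoters had been seen. The pair was found in 4 genes, H2-Aa, H2-Eb1, H2-Oa and H2-Ob, always on the gene's strand, with the Y core starting 43 to 59 bases before the gene start. It was found in 1.02% of all 32851 promoter windows, and on the gene's strand in 0.521%, while GCAAC alone was in 35.2% and ATTGG alone in 37.4%. In H2-DMb1 the Y core was found without the letters GCAAC, and neither window of H2-DMa held the pair. Capitals mark the 2 cores, read 5′ to 3′ on the gene's strand.
H2-Aa, chr17:34287862-34287914, minus strand: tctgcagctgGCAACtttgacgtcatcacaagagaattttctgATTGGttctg
H2-Eb1, chr17:34305766-34305817, plus strand: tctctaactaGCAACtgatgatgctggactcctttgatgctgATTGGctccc
H2-Oa, chr17:34092293-34092345, plus strand: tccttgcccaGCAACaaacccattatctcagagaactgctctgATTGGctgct
H2-Ob, chr17:34238808-34238857, plus strand: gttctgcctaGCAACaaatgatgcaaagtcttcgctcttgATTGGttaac
H2-DMb1, chr17:34153092-34153139, plus strand: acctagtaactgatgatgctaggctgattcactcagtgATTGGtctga

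Levels are GCRMA intensity units on a linear scale, whose floor was 4.49. A level of 16 units (log2 of 4) marks dim probe sets, and array medians lay between 13.1 and 13.8. Msi2 was lower in mutants of both leukaemias, by -2.11 ± 0.34 in AML and -2.63 ± 0.34 in bcCML (log2 difference ± SE; limma adjusted p = 0.0211 and 0.0200). AML mutant array 1 stood apart in monocyte and macrophage markers, with a summed level of 7768 units where the other 5 AML arrays held 16750 to 28809. All values below come from 1 array per sample, and the number of arrays limits their precision.

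The 2 chains of I-A, the beta chain of I-E and the invariant chain were present in all 4 groups, but their levels differed widely between replicates of the same group. H2-Aa measured 95.5, 358 and 187 units in mutant AML, against 138, 949 and 95.7 units in wild-type AML. It measured 16.9, 815 and 512 units in mutant bcCML, against 14.99, 70.2 and 333 units in wild-type bcCML. The arrays of every group overlapped those of every other, with a 48.3-fold range inside mutant bcCML alone.

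H2-Eb1 followed the same arrays. It measured 48.9, 245 and 79.2 units in mutant AML, against 92.5, 535 and 16.4 units in wild-type AML. In mutant bcCML it measured 7.84, 425 and 341 units, against 6.52, 18.4 and 120 units in wild-type bcCML. On array 1 of each bcCML group it was near the floor. Within mutant bcCML the highest array was 54.2 times the lowest.

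Cd74, encoding the invariant chain, measured 148, 684 and 453 units in mutant AML, against 257, 2951 and 234 units in wild-type AML. It measured 54.7, 2501 and 971 units in mutant bcCML, against 51.9, 335 and 605 units in wild-type bcCML. The highest array of wild-type AML was again array 2 and the lowest of each bcCML group array 1.

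H2-Ab1 varied less. It measured 92.1, 182 and 136 units in mutant AML, against 280, 514 and 195 units in wild-type AML, and these groups did not overlap. It measured 39.3, 286 and 292 units in mutant bcCML, against 169, 195 and 269 units in wild-type bcCML, and these groups overlapped.

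**Figure D1:**
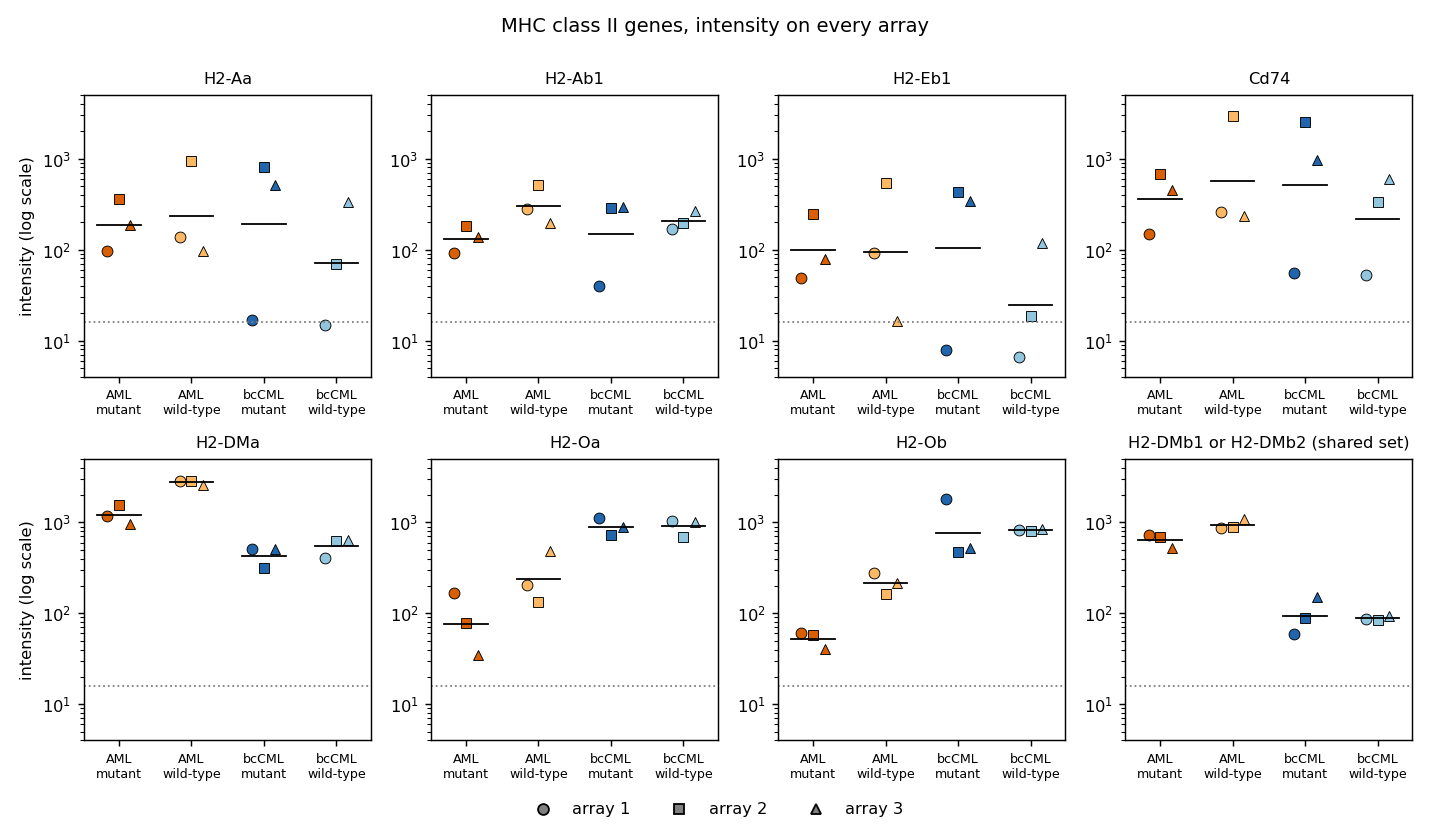
Intensity (log scale) of the 7 tested class II genes and of the brighter probe set shared by H2-DMb1 and H2-DMb2 on each array, by group; symbols give the replicate number, bars the mean of log2 values, and the dotted line 16 units. H2-Aa, H2-Eb1 and Cd74 spread over more than a factor of 10 inside wild-type bcCML, whereas H2-DMa, H2-Oa and H2-Ob differ between AML and bcCML with no overlap.

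This spread within groups was large for the arrays at hand. The residual SD of log2 intensity around the group means was 2.38 for H2-Eb1, 2.15 for H2-Aa and 2.08 for Cd74, where the median over all tested genes was 0.31. Only 0.0370%, 0.111% and 0.129% of tested genes had a larger one. For H2-Ab1 it was 0.95 (5.70% of genes larger), for H2-Oa 0.78 (9.47%), for H2-Ob 0.59 (17.7%) and for H2-DMa 0.32 (47.2%). H2-DMa was therefore about as steady between replicates as the median gene.

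The 3 chain genes and Cd74 were high or low on the same arrays. Over the 12 deviations from the group means, Pearson's r among H2-Aa, H2-Ab1, H2-Eb1 and Cd74 lay between 0.90 and 0.97 for the 6 pairs. Between these 4 and H2-DMa, H2-Oa or H2-Ob it lay between -0.88 and 0.14 for the 12 pairs, the lowest being H2-Ab1 with H2-Ob. These are descriptions over arrays that every gene shares, with no p. As background, Cd74 lies on another chromosome than the H2 genes, and H2-Ob lies next to H2-Ab1 among the class II genes. Neither Cd74 nor H2-Ab1 was among the genes matched in the promoter table. The 3 tested probe sets of H2-Aa correlated at 0.96 to 0.98 in these deviations and those of H2-Ab1 at 0.64 to 0.98.

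**Figure D2:**
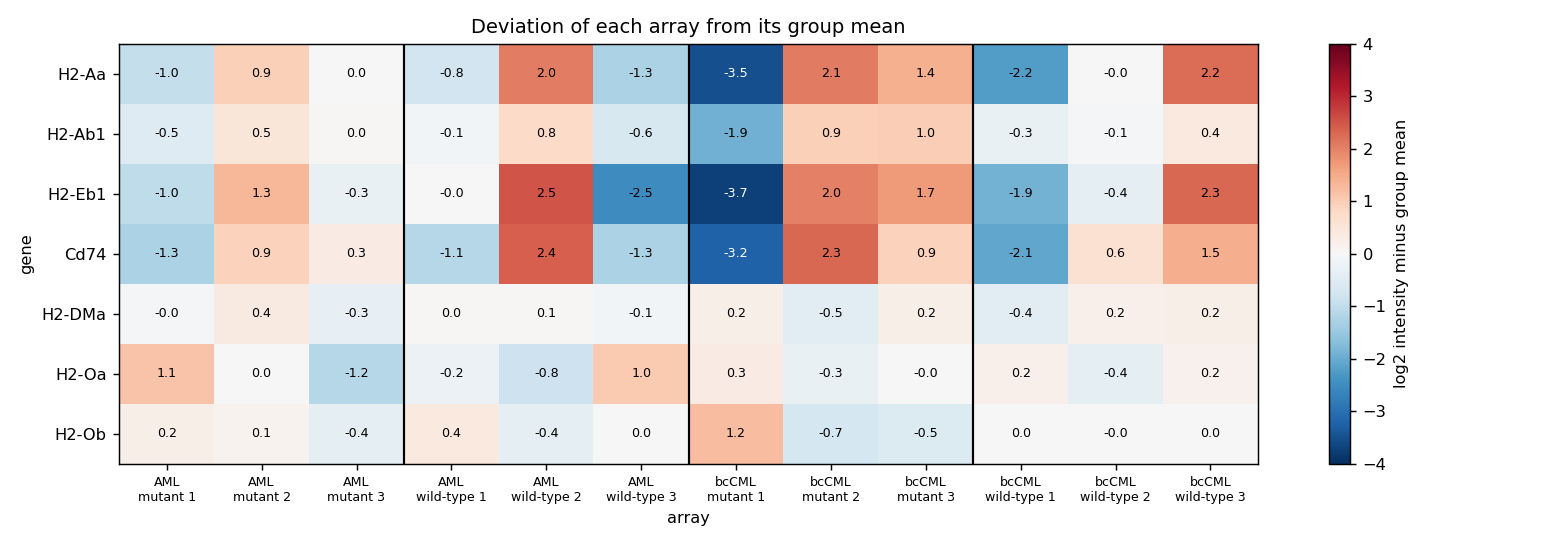
Log2 intensity of each class II gene minus its group mean, a column per array and vertical lines between groups; red is above and blue below the group mean. H2-Aa, H2-Eb1 and Cd74 share their signs on most arrays, from -3.73 for H2-Eb1 on bcCML mutant array 1 to 2.52 on AML wild-type array 2, while H2-DMa stays near 0.

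Levels of Ciita were not above the dim mark on any array. Its 3 probe sets did not exceed 6.24 units throughout, also on wild-type AML array 2, where Cd74 measured 2951 units, so no change of Ciita could be measured. The alpha chain gene of I-E, H2-Ea, with 3 probe sets, and H2-Eb2, with 1, were likewise under 16 units on all 12 arrays.

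Genes whose deviations were most like the mean deviation of the 7 class II genes were ranked among 5750 candidates. That mean followed H2-Aa, H2-Eb1, Cd74 and H2-Ab1 (r = 0.99, 0.98, 0.96 and 0.91). It did not follow H2-DMa, H2-Oa and H2-Ob (0.19, -0.39 and -0.70). The 10 closest were Nsmf, Fscn1, Mpzl1, Kbtbd11, Ppm1h, Sestd1, Galnt12, Elovl6, Phldb1 and Usp12, with r between 0.87 and 0.92 over 12 arrays; the 99th percentile of the candidates was 0.78. Fscn1, which encodes the actin-bundling protein fascin, measured 17.0, 54.1 and 13.2 units in mutant AML, against 11.6, 182 and 25.8 units in wild-type AML. In mutant bcCML it measured 6.34, 130.1 and 51.0 units, against 8.38, 50.3 and 74.5 units in wild-type bcCML. Its highest arrays in wild-type AML and mutant bcCML were those of Cd74. The 14 interferon gamma response genes tested ranged from -0.22 to 0.84 in r, with a median of 0.51. The GTPase gene Igtp was highest, and 3 genes were below 0: Cxcl9 (-0.22), Ifngr1 (-0.16) and Jak1 (-0.16). Among the class II promoter factors, r ranged from -0.52 for Nfyb to 0.77 for Rfxank, a subunit of the X box complex RFX. The RFX subunits Rfx5 and Rfxap had -0.35 and -0.36. All 4 varied little, with an SD of log2 deviations of 0.12 for Nfyb, 0.13 for Rfxank, 0.20 for Rfx5 and 0.19 for Rfxap. These SDs were under the minimum of 0.25 set for the ranked candidates. Irf1, which is also on the interferon gamma list, had 0.73 with an SD of 0.40.

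Most dendritic cell and B cell markers on the lists were dim, while more monocyte and macrophage markers were above 16 units on AML arrays than on bcCML arrays. Of 13 monocyte and macrophage markers, 3 were under 16 units on every array, and on each AML array 9 were above 16 units. On bcCML arrays 4 to 6 of them were above 16 units in mutants and 4 to 5 in wild-type cells. Of the 12 dendritic cell markers, 4 were above 16 units on each bcCML array. Of 12 dendritic cell markers, 7 were under 16 units on every array, among them Xcr1, Cd209a, Siglech, Batf3 and Ccr7. Of 9 B cell markers, 5 were, among them Ms4a1, Pax5 and Blk, and of 9 T and NK cell markers, 6 were, among them Cd3e and Cd4. The summed level of the dendritic cell list was 498 to 1299 units in mutant AML, 1058 to 4553 in wild-type AML, 3005 to 5325 in mutant bcCML and 3539 to 4325 in wild-type bcCML. Its highest AML value fell on wild-type array 2 and its highest bcCML value on mutant array 2, the arrays that were also highest in Cd74. Dpp4 alone made up 3233 and 2936 units there. Within mutant AML the dendritic cell list and Cd74 were also both highest on array 2. Within wild-type bcCML, however, the list was highest on array 1 (4325 units), where Cd74 was lowest (51.9 units). That list was led by Dpp4, Clec10a and Bst2, which other blood cells express too. With the mean deviation of the 7 class II genes, the mean deviation of the tested dendritic cell markers correlated at 0.38 (5 genes) and that of B cell markers at 0.37 (3 genes). Monocyte and macrophage markers had 0.12 (9 genes), T and NK cell markers 0.65 (2 genes), neutrophil granule genes -0.11 (8 genes) and stem and progenitor markers -0.76 (5 genes). Of the pathway lists, taken the same way, interferon gamma response genes had 0.73 (14 genes) and class I presentation genes 0.71 (15 genes). H2-DMb2 had 0.72, class II promoter factors 0.50 (13 genes), co-stimulation genes 0.42 (7 genes) and endosomal antigen processing genes 0.28 (12 genes). The B cell list summed to 604 to 817 units in mutant AML and 829 to 1152 in wild-type AML, mostly Cd79b, and to 121 to 287 in mutant bcCML and 126 to 129 in wild-type bcCML. The part of any of these cells in the spread of the chain genes was not tested. In these bulk samples, fewer cells of a type and less RNA per cell cannot be told apart.

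Whether loss of Msi2 changed class II genes was asked first in AML. No class II gene passed the threshold there (limma, Benjamini-Hochberg adjusted p under 0.05 over all genes), where 1.52% of tested genes did, although 3 of the 7 had an unadjusted p under 0.05, as did 14.2% of all tested genes. Arrays did not overlap between the groups for 3 of 7, H2-DMa, H2-Ob and H2-Ab1, each lower in mutants, where 11.6% of tested genes were lower and 5.18% higher without overlap.

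H2-DMa, the alpha chain of the peptide exchange factor, measured 1179, 1551 and 972 units in mutant AML, against 2842, 2886 and 2582 units in wild-type AML. Every mutant array was lower than every wild-type one. The means were 1234 ± 294 and 2770 ± 164 units (SD, n = 3), a log2 difference of -1.19 ± 0.25 (SE) just outside the threshold (limma adjusted p = 0.0526). Its second probe set gave -1.60 ± 0.34. The difference was -1.17 without AML mutant array 1 (adjusted p = 0.0916).

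H2-Ob, the beta chain of H2-DO, measured 61.5, 57.6 and 40.5 units in mutant AML, against 281, 163 and 214 units in wild-type AML. The groups did not overlap, and the log2 difference was -2.03 ± 0.44 (SE; limma adjusted p = 0.0557). A dimmer probe set shared by H2-Ob and Gm20506 gave -1.40 ± 0.52.

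H2-Oa, the alpha chain of H2-DO, measured 169, 77.3 and 34.4 units in mutant AML, against 204, 135 and 487 units in wild-type AML. Mutant array 1 lay above wild-type array 2, so the groups overlapped. The log2 difference was -1.63 ± 0.57 (SE; limma adjusted p = 0.222).

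Among the chain genes, H2-Ab1 differed by -1.21 ± 0.70 in AML (SE; limma adjusted p = 0.498), with all 3 of its probe sets free of overlap. H2-Aa differed by -0.32 ± 1.55, Cd74 by -0.65 ± 1.51 and H2-Eb1 by 0.08 ± 1.73. The 95% interval for H2-Aa ran from -3.78 to 3.13 on the log2 scale, so neither a large rise nor a large fall of these genes could be told from the spread. The median difference of the 7 genes was -1.19, beside -0.05 over all tested genes, and 6 of the 7 estimates were negative.

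**Figure D3:**
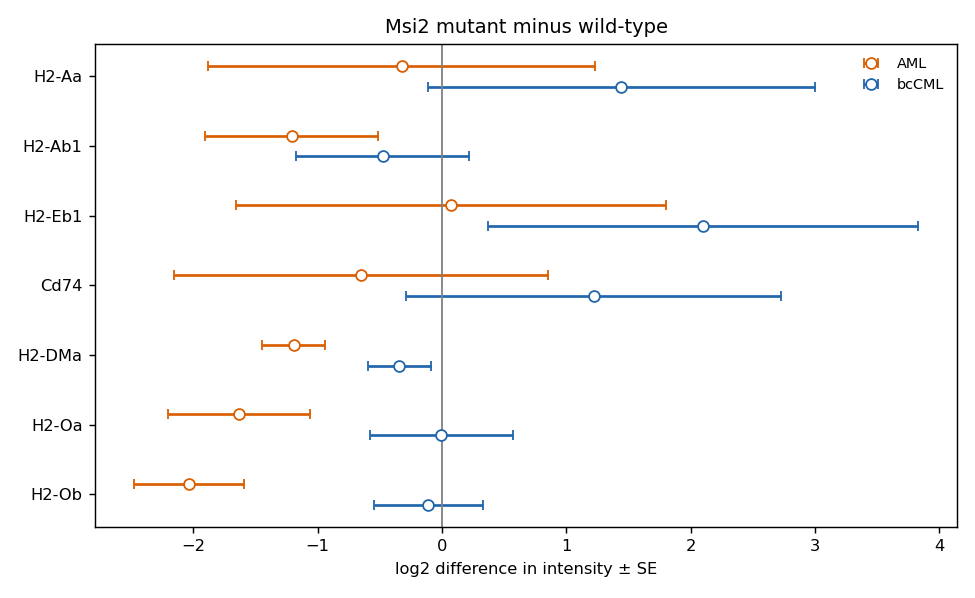
Log2 difference in intensity, Msi2 mutant minus wild-type, with SE for the 7 class II genes in AML and in bcCML; open points did not pass the threshold. H2-DMa, H2-Oa and H2-Ob lie at -1.19, -1.63 and -2.03 in AML and near 0 in bcCML, and bars of H2-Aa, H2-Eb1 and Cd74 are wide.

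In bcCML no class II gene passed either, where 0.139% of tested genes did, and none had an unadjusted p under 0.05, where 8.32% of all tested genes did. The arrays of mutant and wild-type bcCML overlapped for all 7, where 10.1% of tested genes were lower and 5.83% higher without overlap. H2-DMa measured 505, 314 and 510 units in mutant bcCML, against 409, 631 and 638 units in wild-type bcCML, a log2 difference of -0.34 ± 0.25 (SE; limma adjusted p = 0.783). H2-Oa measured 1126, 728 and 885 units in mutant bcCML, against 1042, 687 and 1022 units in wild-type bcCML, and its 95% interval ran from -1.28 to 1.27 (log2). H2-Ob measured 1791, 473 and 523 units in mutant bcCML, against 823, 806 and 838 units in wild-type bcCML. Mutant array 1 was the highest of all 12 arrays for H2-Ob and the lowest but 1 for Cd74. The estimates for H2-Eb1, H2-Aa and Cd74 were 2.10 ± 1.73, 1.44 ± 1.55 and 1.22 ± 1.51 (log2 ± SE). For each of these 3 genes the mutant array was higher than the wild-type array of the same number in 3 of 3 pairs. The pairs were uneven, with differences from 0.27 to 4.53 for H2-Eb1, from 0.17 to 3.54 for H2-Aa and from 0.08 to 2.90 for Cd74. H2-Ab1, the partner chain of H2-Aa, had a negative estimate (-0.48 ± 0.70, log2 ± SE). Its mutant array was higher in 2 of 3 pairs, with differences from -2.10 to 0.55. The labels state no pairing, and the numbers were taken as pairs from correlations of these same arrays. H2-Eb1, H2-Aa and Cd74 also varied together over the arrays (r 0.93 to 0.97), so their pair counts are not separate observations. With bcCML fitted alone and the replicate number as a block, the SE was 0.92 for H2-Eb1, 0.77 for H2-Aa and 0.63 for Cd74, and none passed (limma adjusted p = 0.430, 0.487 and 0.476). These smaller SEs depend on that choice of pairs.

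The mean effect over both leukaemias passed for no class II gene, where 0.471% of tested genes passed; the smallest adjusted p was that of H2-DMa (-0.77 ± 0.18; limma adjusted p = 0.0988). The interaction, taken as the bcCML effect minus the AML effect, was positive for all 7 and passed for none, as for 0% of all genes tested with limma. At an unadjusted p under 0.05, 9.37% of all genes and 2 of the 7 lay, H2-Ob (1.92 ± 0.62; adjusted p = 0.369) and H2-DMa (0.85 ± 0.36; adjusted p = 0.498). The Msi2 effects on H2-DMa and H2-DO are therefore not shown to differ between AML and bcCML.

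The clearest differences in these genes lay between the leukaemias. H2-DMa fell and both H2-DO genes rose in bcCML relative to AML, among both wild-type and mutant donors, 2 comparisons that share no array. In wild-type donors 3 of 7 class II genes passed, where 36.9% of tested genes did, and in mutant donors the same 3 of 7, where 45.1% did. In each, 2 rose and 1 fell, where 17.7% of tested genes rose and 19.3% fell among wild-type donors, and 23.2% rose and 21.9% fell among mutant donors. By number, the class II genes were near those shares.

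H2-DMa averaged 443 ± 112 units in mutant bcCML and 1234 ± 294 units in mutant AML (SD, n = 3 each), a log2 difference of -1.49 ± 0.25 (SE; limma adjusted p = 0.000922). It averaged 559 ± 130 units in wild-type bcCML and 2770 ± 164 units in wild-type AML, 5.05-fold lower as a ratio of means of log2 values, as for the other folds between groups except the bounds (-2.34 ± 0.25; limma adjusted p = 6.36e-05). No array of bcCML reached the lowest array of AML, as for 26.5% of tested genes among mutant and 26.8% among wild-type donors. The order of levels was thus wild-type AML, mutant AML, then the 2 bcCML groups, which overlapped.

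The partner chain could be followed only through 2 probe sets that H2-DMb1 shares with H2-DMb2. The brighter one measured 59.6, 88.7 and 152 units in mutant bcCML, against 725, 691 and 523 units in mutant AML. It measured 85.8, 84.2 and 94.4 units in wild-type bcCML, against 859, 892 and 1091 units in wild-type AML. Tested among all 23529 probe sets past the filter, it fell in bcCML, with differences of -2.78 ± 0.29 for mutant and -3.42 ± 0.29 for wild-type donors (log2 ± SE; limma adjusted p = 3.77e-05 and 1.12e-05) and no overlap. The probe set named for H2-DMb2 alone that was brightest gave -1.28 ± 0.68 and -1.97 ± 0.68 (log2 ± SE). Among mutant donors this did not pass. Among wild-type donors it passed, but at gene level that call ended under 12 of 24 alternatives, with differences from -2.52 to -1.03 on leaving out single arrays, the smallest without bcCML wild-type array 1. All arrays of mutant AML lay below those of wild-type AML for both shared probe sets, with differences of -0.56 ± 0.29 and -0.45 ± 0.24 that did not pass.

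H2-Oa averaged 913 ± 200 units in mutant bcCML and 93.7 ± 68.8 units in mutant AML (SD, n = 3 each), 11.7-fold higher from the log2 means (3.55 ± 0.57; limma adjusted p = 0.000633). It averaged 917 ± 200 units in wild-type bcCML and 275 ± 187 units in wild-type AML, 3.80-fold higher from the log2 means (1.92 ± 0.57; limma adjusted p = 0.0235). For wild-type donors the call ended on leaving out AML wild-type array 1 or 2 or bcCML wild-type array 1 or 3, with adjusted p values from 0.0677 to 0.0862.

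H2-Ob averaged 929 ± 747 units in mutant bcCML and 53.2 ± 11.2 units in mutant AML (SD, n = 3 each), 14.6-fold higher from the log2 means (3.86 ± 0.44; limma adjusted p = 6.39e-05). It averaged 823 ± 16.01 units in wild-type bcCML and 220 ± 59.1 units in wild-type AML, 3.84-fold higher from the log2 means (1.94 ± 0.44; limma adjusted p = 0.00622). By the probe set that represented each gene, both chains of H2-DO therefore rose in bcCML without overlap of arrays. So did 29% of tested genes among mutant and 25.6% among wild-type donors. The dimmer probe set that H2-Ob shares with Gm20506 rose without overlap among mutant donors (2.41 ± 0.52, log2 ± SE, limma adjusted p = 0.00392). Among wild-type donors its arrays overlapped and it did not pass (0.97 ± 0.52, limma adjusted p = 0.183).

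The chain genes and Cd74 did not pass between the leukaemias. In mutant donors H2-Aa, H2-Ab1, H2-Eb1 and Cd74 differed by 0.05 ± 1.55, 0.17 ± 0.70, 0.09 ± 1.73 and 0.51 ± 1.51 (log2 ± SE, bcCML minus AML). In wild-type donors they differed by -1.72 ± 1.55, -0.56 ± 0.70, -1.94 ± 1.73 and -1.36 ± 1.51. With intervals this wide the levels are not shown to be alike.

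**Figure D4:**
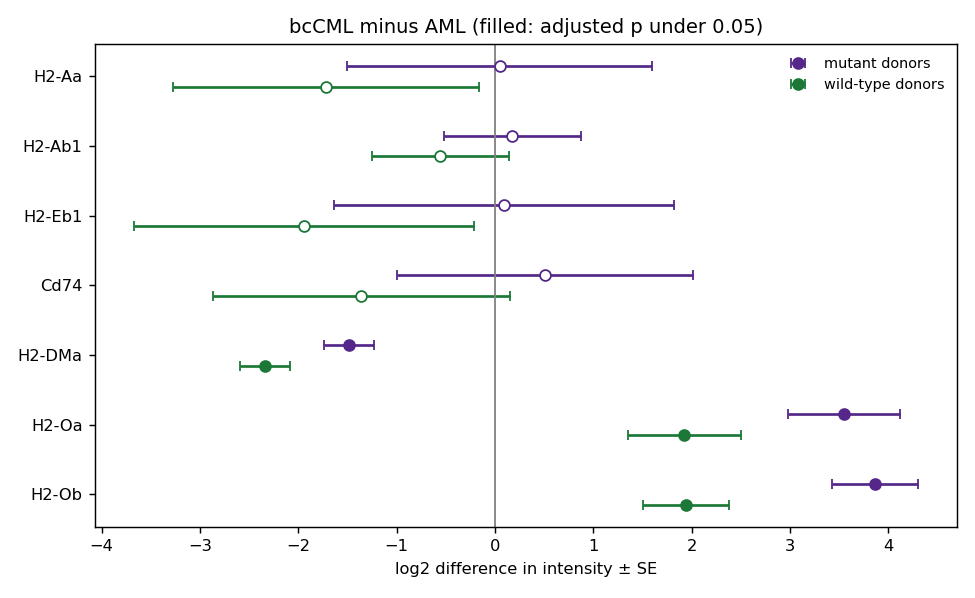
Log2 difference in intensity, bcCML minus AML, with SE for the 7 class II genes, for mutant and for wild-type donors; filled points passed an adjusted p of 0.05. H2-DMa lies at -1.49 and -2.34, H2-Oa at 3.55 and 1.92 and H2-Ob at 3.86 and 1.94, whereas the chain genes and Cd74 have bars that are wide or reach across 0.

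Monocyte and macrophage markers moved with the leukaemia as well. Their summed level over 13 genes was 1937 to 2041 units in mutant bcCML and 7768 to 28809 in mutant AML, and 1088 to 1785 in wild-type bcCML and 16750 to 20047 in wild-type AML. Csf1r, the receptor gene of the monocyte growth factor CSF1, was under 16 units on all bcCML arrays. Neutrophil granule genes summed to 3173 to 14888 units in mutant bcCML and 149800 to 179202 in mutant AML, and to 10473 to 34838 in wild-type bcCML and 77036 to 121903 in wild-type AML. The part of these differences in cell type in the results for H2-DM and H2-DO was not tested.

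The other genes of the pathway were read from fixed lists. Of 13 class II promoter factors, none passed for loss of Msi2 in AML or in bcCML. Between the leukaemias, 9 of them passed in mutant donors, 1 higher and 8 lower in bcCML, and 8 in wild-type donors, all lower. Of all tested genes, 45.1% passed in mutant donors (23.2% higher, 21.9% lower) and 36.9% in wild-type donors (17.7% higher, 19.3% lower). Irf8, a transcription factor of monocytes and dendritic cells, was at least 38.3-fold lower in mutant and at least 102-fold lower in wild-type bcCML, with all bcCML arrays under 16 units. Spi1, encoding the myeloid factor PU.1, fell by 3.18 ± 0.28 in mutant and 2.59 ± 0.28 in wild-type bcCML (log2 ± SE). Rfx5 was the 1 that rose, by 0.82 ± 0.19 in mutant donors (limma adjusted p = 0.00623), a call that ended when those 2 groups were fitted alone with the replicate number as a block (adjusted p = 0.0626). Also in mutant donors, the calls of Nfyc and Irf4 each ended under 5 of 24 alternatives, Crebbp under 3, and Creb1 and Ep300 under 1. In wild-type donors that of Rfxap ended under 6 of 24.

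Of 12 genes of endosomal antigen processing, 9 fell in mutant and 8 in wild-type bcCML relative to AML, and none rose. Among all tested genes, 21.9% and 19.3% fell. In mutant donors some of the 9 calls were unsteady. That of Lgmn, encoding the protease legumain, ended under 14 of 20 alternatives (-1.58 ± 0.58, and -0.38 with a floor at 16 units). That of Ifi30 ended under 8 of 24 (-1.36 ± 0.47, and -0.88 without AML mutant array 2), and that of Ctsl under 2 of 24. The median differences were -1.47 and -1.85, beside 0.03 and 0.00 over all genes. Ctss, encoding cathepsin S, which trims the invariant chain, averaged 162 units in mutant bcCML and 9343 units in mutant AML. It averaged 77.9 units in wild-type bcCML and 8919 units in wild-type AML. Marchf1, encoding a ubiquitin ligase that removes class II from the surface, was at least 24.0-fold lower in mutant and at least 21.8-fold lower in wild-type bcCML. Ifi30, the thiol reductase GILT of endosomes, fell by 2.31 ± 0.47 in wild-type bcCML (log2 ± SE). In AML it averaged 3012 units in mutants and 6809 units in wild-type cells, which missed the threshold with a log2 difference of -1.38 ± 0.47 (limma adjusted p = 0.205).

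Class I presentation genes, measured with 15 genes, showed no such shift. In mutant donors 3 rose and 2 fell in bcCML, and in wild-type donors 0 rose and 2 fell, with medians of 0.09 and -0.04. Among all tested genes, 45.1% and 36.9% passed in these comparisons. In mutant donors the calls of Psmb10 and Tap1 (higher) ended under 6 and 2 of 24 alternatives, and those of Tapbpl and Tapbp (lower) under 4 and 2. In wild-type donors those of Tapbpl and Tapbp ended under 3 and 1 of 24. Nlrc5, the class I counterpart of Ciita, averaged 1215 units in mutant bcCML and 246 units in mutant AML (2.33 ± 0.71; limma adjusted p = 0.0215). That call ended without AML mutant array 1 or without bcCML mutant array 2 or 3 (adjusted p from 0.0605 to 0.0679). Unlike Ciita, it lay above 16 units on all 12 arrays. In AML none of the 15 passed for loss of Msi2; Psmb8 and Tap2, of the immunoproteasome and the peptide transporter, differed by -0.66 ± 0.18 and -0.86 ± 0.26 (limma adjusted p = 0.109 and 0.151).

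Of 14 interferon gamma response genes, none passed for loss of Msi2 in either leukaemia. Between the leukaemias 3 rose and 3 fell in mutant bcCML, and 4 rose and 4 fell in wild-type bcCML. Among all tested genes, 45.1% passed in mutant and 36.9% in wild-type donors. In wild-type donors the calls of Jak2 and Jak1, both higher in bcCML, ended under 15 and 1 of 24 alternatives. In mutant donors those of Gbp3 (lower) and Jak2 (higher) ended under 5 and 3 of 24. The 2 receptor genes, Ifngr1 and Ifngr2, fell by 2.78 ± 0.29 and 2.99 ± 0.30 in mutant and by 1.501 ± 0.29 and 2.40 ± 0.30 in wild-type bcCML. Of 7 co-stimulation genes, 3 fell in mutant bcCML (Cd83, Cd86 and Icosl) and 2 in wild-type bcCML (Cd83 and Icosl), where 21.9% and 19.3% of tested genes fell. In each comparison 1 rose, Pdcd1lg2, which encodes a ligand of PD-1, with 239 units in mutant bcCML and 42.0 units in mutant AML. It measured 359 units in wild-type bcCML and 14.99 units in wild-type AML. Cd83, a surface marker of mature dendritic cells, was at least 2.76-fold lower in mutant bcCML. In mutant donors the calls of Cd86 and Icosl ended under 10 of 20 and 12 of 24 alternatives, and in wild-type donors that of Cd83 under 2 of 24.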

How the data were processed

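Per the submitters' processing notes, GCRMA turned the scans into the deposited intensity values, which are linear and cover whole probe sets; its version and settings were not stated. GCRMA corrects background by probe sequence and presses dim probe sets onto a floor, so changes of dim genes are only partly measured. Log2 was taken without a pseudocount. Probe sets above 4 (log2) on at least 3 of 12 arrays were kept, and each gene was represented by its brightest. Names ending in _x_at or _s_at mark probes that other transcripts may share. A model with a mean for each group was fitted to all 12 arrays in limma 3.58.1 (R 4.3.3), leaving 8 residual degrees of freedom; tests were two-sided and adjusted by Benjamini-Hochberg over 10817 genes, with a threshold of 0.05. The fit was tested on simulated data. Where all arrays of a group lay under 16 units, a fold is a bound against 16. All class II genes were named; of the pathway lists, genes past the threshold or with the smallest p; and the 10 genes most like the class II profile, with an SD of deviations of at least 0.25. Members and lists were chosen with earlier results of these data known. Same-numbered mutant and wild-type bcCML arrays correlated in their deviations at 0.40, 0.36 and 0.28, and those of AML at -0.06, -0.12 and -0.03, so numbers were treated as pairing bcCML only, from the data. Alternatives were 2 other filters, a pseudocount of 16, a floor of 16, other probe set summaries, added normalization, other spread models, replicate blocks, single comparisons alone and leaving out each array. Replicates are called biological in the titles.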

Additional observations from a re-analysis of the deposited data

How the results depend on the processing

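Whether H2-DMa or H2-Ob passes in AML depends on the setting. No class II gene passed as reported. With a pseudocount of 16 or the mean of a gene's probe sets 1 passed, H2-DMa (adjusted p = 0.0435 and 0.0442), with trend and robust spread 2, both (0.0341 and 0.0388), and with the replicate block 1, H2-Ob (0.0453). With mutant and wild-type AML alone none did (0.161 and 0.129), nor with the block added (0.438 for each). Leaving out single arrays gave 0 to 1 (1 without bcCML mutant array 1, H2-Ob, or 2, H2-DMa), and 0 to 1 for the mean effect of both leukaemias (1 without bcCML mutant array 1, H2-Ob). The log2 differences stayed between -1.40 and -1.03 for H2-DMa and between -2.23 and -1.75 for H2-Ob. The block changed no bcCML call. The counts in bcCML and for the difference between the leukaemias stayed at 0, and those of bcCML against AML within 2 to 3, under all alternatives run. H2-Oa between wild-type donors also lost its call without a filter (0.0614). Directions that turned, none called, were H2-Eb1 in AML with a pseudocount of 16 (-0.088) and H2-Oa in bcCML with quantile normalization (0.027) or median centring (0.044).

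Leaving out single arrays, the sign of uncalled differences turned for several genes. In AML they ranged from -1.18 to 1.34 for H2-Eb1, from -0.96 to 0.69 for H2-Aa and from -1.28 to 0.55 for Cd74. In bcCML they ranged from -0.96 to 0.48 for H2-Ab1, from -0.20 to 0.15 for H2-Oa and from -0.73 to 0.23 for H2-Ob, and the mean effect on Cd74 from -0.29 to 1.09. Between mutant bcCML and mutant AML they ranged from -0.998 to 1.798 for H2-Aa, from -0.31 to 1.13 for H2-Ab1, from -0.93 to 1.95 for H2-Eb1 and from -0.64 to 2.12 for Cd74. These fits hold fewer arrays by construction; the cause was not tested further. GCRMA leaves dim probe sets, such as those of Ciita, without a measurable difference. Calls over all genes numbered 164 as reported in AML and 0 to 191 under the alternatives that test genes, 15 and 0 to 24 in bcCML, 51 and 4 to 120 for the mean effect, 0 and 0 to 6 for the interaction, 4875 and 3188 to 5035 between leukaemias of mutant donors, and 3996 and 3133 to 4343 of wild-type donors. Testing the 23529 probe sets separately gave 228, 14, 77, 2, 9651 and 7524 probe sets in the same order.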
